A study of Homo sapiens with 12 samples.

Results

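The collagens, laminins and integrins were taken as the coding genes whose symbols name a collagen chain, a laminin chain, an integrin alpha chain or a numbered integrin beta chain. Of 19863 coding genes matched in the annotation, 82 met this rule, namely 44 collagen chains, 12 laminin chains, 18 integrin alpha chains and 8 integrin beta chains. The rule reads symbols alone and no measured value.

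Collagens are trimers of chains with a repeated triplet in which glycine recurs at a fixed interval, and they form fibrils, sheet-like networks, beaded filaments or transmembrane proteins. Laminins are cross-shaped trimers of an alpha, a beta and a gamma chain that polymerise into the basement membrane, where type IV collagen forms another network. Integrins are dimers of an alpha and a beta chain at the cell surface that bind these proteins outside the cell and connect them to actin inside it.

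The genes were measured in 12 RNA-seq libraries labelled HEK293T, a line from human embryonic kidney that carries the SV40 large T antigen, in cells labelled wild type and grown in DMEM with serum. The paper names the cells of this experiment HEK293, so the line is given here by the labels. The cells were transfected with siRNA, 2 libraries per group: siCTL with control siRNA, siCARM1 against the arginine methyltransferase CARM1, and siCHD4, siHDAC2, siGATAD2A and siKDM1A against subunits of the NuRD chromatin remodelling complex. The design asks which genes respond to CARM1 and to these subunits, so each knockdown was compared with siCTL and with the other knockdowns. The paper's methods list a single siRNA sequence for each of these subunits. For CARM1 they list 2, without naming the one used for RNA-seq. Effects of an siRNA on other genes thus cannot be told apart from loss of its target. The labels call the 2 libraries of a group replicates without stating separate cultures, so the p-values measure the spread between these libraries, which may be technical.

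Reads assigned to genes on the sequenced strand numbered 19308315 to 28648657 per library. Both siCTL libraries (19308315 and 23069839) lay below every siCHD4, siGATAD2A and siKDM1A library (lowest 23257088), and the siCARM1 and siHDAC2 libraries overlapped with them. Raw counts given below are not adjusted for this total. Expression is given as FPKM, the count divided by exonic length in kilobases and by the total on genes, on the usual scale of that unit. The targeted gene fell in each knockdown, to 19.2% of its siCTL FPKM for CARM1, 67.0% for CHD4, 19.5% for HDAC2, 29.8% for GATAD2A and 16.6% for KDM1A. By this measure the siCHD4 libraries kept the most of their target. CHD4 also had the lowest siCTL mean of the targets, 2.94 FPKM against 9.09 to 27.0 for the others. Overlap of the targets with other genes was not examined. Reads with several locations, which are not in the counts, took 10.6% and 7.54% of the siCTL libraries, 9.19% and 6.12% of the siCARM1 libraries and 5.44% to 6.74% of the other 8 libraries, and their part in the results was not tested. The protocol names 2 sequencing companies without saying which library went to which, so company and group cannot be told apart. Of 6 markers of HEK293 cells, 4 exceeded 0.5 FPKM in at least 1 group (VIM, INA, LHX1 and SALL1), while NEFM and PAX2 stayed under 0.5 FPKM. INA exceeded it only in siCHD4 (1.21 FPKM, against 0.185 in siCTL), where it was called higher. VIM had 72.7 FPKM in siCTL and was called in every knockdown, lower in siGATAD2A (46.7) and higher in the others (95.7 to 132). LHX1 was called lower in siCARM1 and siCHD4, and SALL1 higher in siCHD4. All 5 leukocyte markers stayed under 0.5 FPKM, as did DCN, THY1 and FAP among 5 fibroblast markers. The other fibroblast markers moved, LUM (0.933 FPKM in siCTL) with higher calls in siCARM1, siHDAC2 and siKDM1A and PDGFRB with higher calls in siCHD4 and siKDM1A, and the summed fibroblast markers were 1.23 to 1.29 FPKM in siCTL, 2.43 to 2.45 in siCARM1, 2.12 to 2.26 in siKDM1A, 1.78 to 1.81 in siHDAC2, 1.53 to 1.78 in siCHD4 and 1.15 to 1.22 in siGATAD2A. Of 4 epithelial markers KRT8 and KRT18 were abundant (166 and 176 FPKM in siCTL) and CDH1 and EPCAM under 0.5 FPKM. KRT8 was called higher in siCHD4 and siKDM1A and lower in siGATAD2A, and KRT18 higher in siCARM1, siCHD4 and siKDM1A. The summed epithelial markers were 342 to 343 FPKM in siCTL, 392 to 393 in siCARM1 and 461 in siCHD4. They were 349 to 358 in siHDAC2, 313 to 317 in siGATAD2A and 436 to 451 in siKDM1A. Of 3 endothelial markers VWF (0.789 FPKM) was called higher in every knockdown but siHDAC2. The part of these markers in the results was not tested.

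HEK293T cells expressed a broad set of these genes. Of the 82 genes, 51 exceeded 0.5 FPKM in the mean of at least 1 group (62.2%, against 64.6% of all coding genes), among them 27 collagens, 9 laminins, 10 integrin alpha chains and 5 integrin beta chains. In siCTL itself 44 exceeded this level, and the other 7 passed it only in a knockdown: COL11A2, COL4A3, COL8A2, COL6A3, COL7A1, COL13A1 and COL17A1. The highest group means just under the threshold were 0.389 FPKM for COL23A1, 0.445 for COL2A1 and 0.486 for ITGAD, and those just over it were 0.504 for COL13A1, 0.579 for COL17A1 and 0.597 for COL11A2. Every gene had at least 1 count in the 12 libraries.

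The laminin alpha chain LAMA5 was the most abundant in siCTL, at 59.7 and 62.5 FPKM. The type VI collagen chain COL6A1 followed at 49.6 and 51.2 FPKM and the laminin gamma chain LAMC1 at 47.7 and 47.6. COL18A1, whose end fragment is known as endostatin, stood at 28.7 and 29.6 FPKM, and COL5A1, a chain of the type V collagen that controls fibril width, at 24.8 and 25.0. The leading integrin chains were ITGB1, the shared beta chain of most matrix-binding integrins, at 26.1 and 23.5 FPKM, ITGA5, its partner in the fibronectin receptor, at 12.4 and 13.4, and ITGB5 at 12.3 and 11.9. Within each family the libraries of neighbouring genes at these ranks did not overlap. Further down some did, such as ITGAV (4.73 and 4.74 FPKM) and ITGA3 (4.47 and 4.92), as well as ITGB8 (1.99 and 2.05) and ITGB4 (1.56 and 2.10). These levels describe a cell that expresses genes for basement membrane laminin and its ITGB1 receptors, whereas COL1A2, the partner chain of COL1A1 in type I collagen, had 1 and 0 counts in siCTL beside 11.7 and 11.7 FPKM of COL1A1. In bulk RNA, fewer cells that express a gene and less RNA per cell cannot be told apart.

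Of the 82 genes, 38 were near-silent in siCTL, with a mean of 0.5 FPKM or less. These genes were tested in a fit of the 16135 coding genes with at least 10 counts in all libraries together, a filter that takes no account of the groups. It left 34 of the 38, since COL11A1, COL10A1, COL22A1 and ITGB6 had 2 to 7 counts in 12 libraries. A call required a fold of at least 1.2 and an adjusted p (edgeR) no larger than 0.05. Of the 34, 20 were called higher in at least 1 knockdown (33.2% of the 3971 coding genes near-silent in siCTL). Choosing genes by a low siCTL value favours higher calls, for the members and for that background alike.

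Knockdown of CHD4 gave the largest number of these calls. It raised 15 of the 34 near-silent genes (44.1%, background 24.2%), siKDM1A 11 (32.4%, background 10.8%), siGATAD2A 10 (29.4%, background 9.59%), siCARM1 7 (20.6%, background 7.96%) and siHDAC2 5 (14.7%, background 7.38%). The shares were above the background in each comparison. However, the background was not matched for gene length or count, here or below. Of the 38 near-silent members 34 had the 10 counts needed, against 3971 of the 7699 coding genes near-silent in siCTL. The part of length and count in the difference was not tested. The count of 10 in siGATAD2A was 6 without the first siGATAD2A library, and the count of 5 in siHDAC2 was 3 without either siCTL library or without the second siHDAC2 library. Of the 20 genes, 7 exceeded 0.5 FPKM in a group and 13 did not reach it in any group. COL6A3, COL23A1 and LAMA2 were higher in all 5 knockdowns, a pattern seen in 1.59% of the near-silent coding genes. The 5 calls of a gene rest on the same 2 siCTL libraries and are not independent.

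COL6A3 encodes the long chain that completes the type VI collagen filament with COL6A1 and COL6A2 (GRCh37, chromosome 2, 238232646 to 238322971, minus strand). It had 3 and 4 counts in the siCTL libraries, 378 and 337 in siCHD4, 73 and 42 in siCARM1, 46 and 45 in siGATAD2A, 18 and 28 in siKDM1A and 13 and 25 in siHDAC2. All 10 knockdown libraries lay above both siCTL libraries, and the siCHD4 libraries lay far above the rest. Per total count, the level in siCHD4 was 86.3 times that in siCTL, with a 95% exact counting interval of 41.7 to 215 (edgeR adjusted p = 4.75e-23). The ratio was 13.9 in siCARM1 (interval 6.54 to 35.4), 11 in siGATAD2A (5.14 to 28.2), 5.74 in siKDM1A (2.58 to 15.1) and 4.67 in siHDAC2 (2.06 to 12.4). These intervals, and those below, cover counting error only. Even in siCHD4, COL6A3 stood at 0.713 and 0.614 FPKM, against 46.1 and 46.5 FPKM for COL6A1 and 13.8 and 13.5 FPKM for COL6A2.

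COL23A1, a transmembrane collagen, had 6 and 8 counts in siCTL and 25 to 53 counts in every knockdown library. Its ratio to siCTL lay between 3.20 in siCHD4 (95% exact counting interval 1.75 to 6.24) and 5.21 in siCARM1 (2.94 to 9.92), so here siCHD4 was not the highest. LAMA2, the laminin alpha chain of muscle basement membrane, had 17 and 24 counts in siCTL, 99 and 97 in siCHD4, 60 and 87 in siHDAC2, 66 and 48 in siCARM1, 56 and 58 in siKDM1A and 52 and 51 in siGATAD2A. Its libraries did not overlap with siCTL in any knockdown. The log2 fold change of LAMA2 was 2.02 ± 0.25 (SE) in siCHD4 and between 1.08 and 1.62 in the others.

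These 3 genes were near-silent in siCTL and called higher in every knockdown, so the 250 bases before their RefSeq start sites are shown. The knockdown with the largest ratio to siCTL differed, siCHD4 for COL6A3 and LAMA2 and siCARM1 for COL23A1. The calls also share the siCTL libraries, so they do not show that the genes moved together. The sequences are from the GRCh38.p14 assembly, 5′ to 3′ on the strand of the gene. Matches stand in capitals for motifs searched on both strands, namely the GC box, spelled GGGCGG, the CCAAT box, whose name gives its letters, and the TATA box, spelled TATAAA. These motifs do not overlap with each other in the windows shown.
COL6A3 (chr2:237414165-237414414, minus strand): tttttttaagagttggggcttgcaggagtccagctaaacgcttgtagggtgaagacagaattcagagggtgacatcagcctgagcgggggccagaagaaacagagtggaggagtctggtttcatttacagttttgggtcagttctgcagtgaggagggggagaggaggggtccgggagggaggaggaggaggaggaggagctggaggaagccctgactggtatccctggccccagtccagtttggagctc
COL23A1 (chr5:178590394-178590643, minus strand): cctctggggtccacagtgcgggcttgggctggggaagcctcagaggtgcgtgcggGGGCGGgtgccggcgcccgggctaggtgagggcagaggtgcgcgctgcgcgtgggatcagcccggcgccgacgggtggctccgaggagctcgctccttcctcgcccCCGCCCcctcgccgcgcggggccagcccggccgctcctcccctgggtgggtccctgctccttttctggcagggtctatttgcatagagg
LAMA2 (chr6:128882888-128883137, plus strand): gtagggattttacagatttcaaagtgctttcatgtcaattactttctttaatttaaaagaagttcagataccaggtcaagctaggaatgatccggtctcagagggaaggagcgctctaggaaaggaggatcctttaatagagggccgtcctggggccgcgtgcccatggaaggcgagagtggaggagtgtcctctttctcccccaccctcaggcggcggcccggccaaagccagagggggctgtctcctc

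COL23A1 held 2 GC boxes, 1 on each strand, and COL6A3 and LAMA2 held no match to the 3 motifs in these windows. Over windows of the same length at 35116 RefSeq promoters, 42.6% held a GC box, 32% a CCAAT box and 10.7% a TATA box. These matches describe letters and not binding sites, and a promoter entry was found for 58 of the 82 genes.

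Other near-silent collagens rose in 2 or 3 knockdowns each. COL7A1, the anchoring fibril collagen of skin, had 0.372 and 0.420 FPKM in siCTL, 1.15 and 0.929 in siCHD4, 0.741 and 0.930 in siGATAD2A and 0.599 and 0.630 in siKDM1A. These 6 libraries lay above both siCTL libraries, with log2 fold changes of 1.4 ± 0.15 (SE), 1.06 ± 0.15 and 0.61 ± 0.16. COL17A1, the hemidesmosome collagen that binds laminin in epithelia, had 27 and 30 counts in siCTL and 99 and 97 in siKDM1A, a ratio of 3.0 (95% exact counting interval 2.23 to 4.11). It was also called higher in siGATAD2A (1.98, interval 1.44 to 2.75) and in siCHD4 (1.88, 1.37 to 2.62), but the siCHD4 call was lost on counts without regard to strand, where the log2 fold change was 0.22 in place of 0.95 in the fit of the expressed genes.

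COL13A1, a transmembrane collagen of the neuromuscular junction, had 41 and 39 counts in siCTL, 123 and 169 in siCHD4 and 116 and 112 in siKDM1A, ratios of 3.08 (95% exact counting interval 2.40 to 4.0) and 2.49 (1.92 to 3.25). COL20A1 had 1 and 3 counts in siCTL, 34 and 50 in siCHD4, 22 and 13 in siGATAD2A and 7 and 14 in siHDAC2, and it was called higher in these 3 knockdowns. COL11A2 was called higher in siCHD4, siGATAD2A and siKDM1A with ratios of 1.55 to 1.64, COL5A3 in siCHD4 (4.65, interval 2.93 to 7.69) and siGATAD2A (2.04, 1.22 to 3.53), COL28A1 in siGATAD2A and siKDM1A (2.17 and 2.31), and COL8A2 in siCARM1 and siKDM1A (1.66 and 1.99). The siHDAC2 call of COL20A1, the siGATAD2A calls of COL5A3 and COL28A1 and the siCARM1 call of COL8A2 were lost under DESeq2. With a library left out, COL20A1 lost its siHDAC2 call (either siCTL, second siHDAC2), COL5A3 its siGATAD2A call (either siCTL, second siGATAD2A), COL28A1 both calls (first siCTL, first siGATAD2A or first siKDM1A), COL8A2 both calls (second siCTL or second siCARM1, and first siKDM1A) and COL11A2 those in siGATAD2A and siKDM1A (the first library of each). A siCARM1 call of COL13A1 (log2 fold change 0.59 ± 0.25 (SE)) was made in the fit of the expressed genes alone and was lost under DESeq2 and without either siCTL library, the first siCARM1 library or any 1 of 6 libraries of other knockdowns.

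COL1A2 had 1 count in the siCTL libraries together, 24 and 32 counts in siCHD4 and 8 and 5 in siCARM1. The ratio to siCTL was 47.3 in siCHD4 (95% exact counting interval 8.15 to 1901) and 11 in siCARM1 (1.66 to 468), and the siCARM1 call was lost under DESeq2 and without the second siCTL or the first siCARM1 library. At 0.090 and 0.116 FPKM in siCHD4, COL1A2 remained far under its partner COL1A1, which had 8.64 and 8.45 FPKM there.

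In siCHD4 alone, higher calls were made for COL9A1 (4 and 1 counts in siCTL, 27 and 25 in siCHD4), COL16A1 (24 and 39 against 86 and 65), COL15A1 (0 and 1 against 7 and 5) and ITGAD, a leukocyte integrin chain (8 and 13 against 50 and 57). The COL15A1 call was lost under DESeq2 and without any 1 of the 4 libraries concerned. ITGAD stood at 0.462 and 0.509 FPKM in siCHD4, while the summed FPKM of 5 leukocyte markers was 0.626 to 0.692 there, against 0.195 to 0.258 in siCTL, 0.261 to 0.389 in siCARM1, 0.370 to 0.474 in siHDAC2, 0.493 to 0.522 in siGATAD2A and 0.352 to 0.386 in siKDM1A. Of these markers CD14 and CD3E stood higher in siCHD4 (means of 0.424 and 0.150 FPKM against 0.160 and 0), PTPRC and CD68 had at most 1 and 3 counts in any of the 12 libraries, and the fifth, ITGAM, is an integrin chain itself. The part of these markers in the ITGAD result was not tested. ITGA9, which binds tenascin and osteopontin, had 18 and 31 counts in siCTL, 62 and 71 in siCHD4 and 74 and 68 in siKDM1A, and it was called higher in both. ITGAM, a leukocyte chain, was called higher in siGATAD2A at 20 and 15 counts against 5 and 3, a call lost under DESeq2 and without the second siCTL or the first siGATAD2A library.

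COL4A3 and COL19A1 moved both ways. COL4A3 had 60 and 75 counts in siCTL, 199 and 178 in siCARM1, 127 and 140 in siKDM1A, 68 and 162 in siHDAC2 and 54 and 47 in siCHD4. It was called higher in the first 3 of these knockdowns and lower in siCHD4, but the siHDAC2 call rested on its second library, without which the log2 fold change was 0.05. The siHDAC2 and siCHD4 calls were also lost without either siCTL library, the former under DESeq2 and the latter without the second siCHD4 library. COL19A1 was called higher in siCARM1 (105 and 84 counts against 38 and 43 in siCTL) and lower in siCHD4 (29 and 14 counts), the latter not without the second siCHD4 library.

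Lower calls among the near-silent genes were fewer. The count was 3 of 34 in siCHD4 (background 5.84%), 2 in siGATAD2A (4.33%), 1 in siCARM1 (2.95%), 1 in siKDM1A (1.94%) and 0 in siHDAC2 (1.26%). In siHDAC2, 1 of the 34 was lower at an unadjusted edgeR p under 0.05, and DESeq2 called 0. ITGA11, a collagen receptor chain, had 51 and 59 counts in siCTL and fell to 35 and 16 in siCARM1, 44 and 33 in siCHD4 and 21 and 30 in siKDM1A. Its siCHD4 call was lost under DESeq2 and without either siCTL library or the second siCHD4 library. COL2A1, the cartilage fibril collagen, fell in siGATAD2A from 47 and 59 counts to 26 and 25, and ITGAX, a leukocyte chain, from 39 and 42 to 15 and 9. On counts without regard to strand, the siCHD4 and siKDM1A calls of ITGA11 (log2 fold changes of -0.38 and -0.43) and the call of COL2A1 (-0.44) were lost. The near-silent genes COL8A1, COL6A5, COL6A6, COL21A1, LAMB4, ITGA10, ITGA8, ITGAL, ITGB2 and ITGB7 were called in no knockdown, with 10 to 258 counts in the 12 libraries together.

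**Figure D1:**
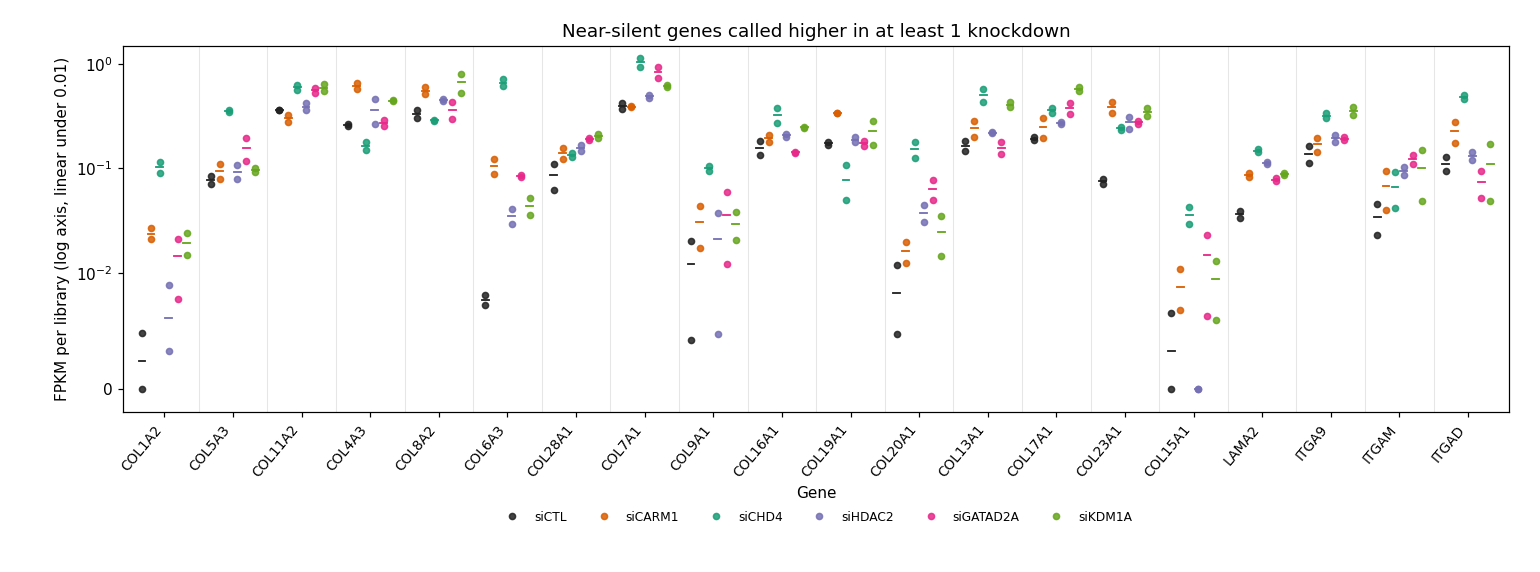
FPKM per library (log axis, linear under 0.01) of the 20 near-silent genes called higher in at least 1 knockdown, with 2 points per group and a bar at their mean. The siCHD4 points of COL6A3 (0.713 and 0.614) stand furthest above siCTL, while COL23A1 and LAMA2 lie above siCTL in every knockdown.

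Among the 51 expressed genes, calls were common, and knockdowns differed in their direction. These were tested among the 12830 coding genes over 0.5 FPKM in at least 1 group. In siCARM1, 26 were higher (background 14.9%) and 5 lower (14.5%). In siKDM1A, 20 were higher (14.2%) and 3 lower (11.5%). In siHDAC2, 15 were higher (10.6%) and 6 lower (9%). In siCHD4, 22 were higher (24%) and 15 lower (24.9%). In siGATAD2A, 10 were higher (15.7%) and 19 lower (18.2%).

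As shares of the 51, the higher calls came to 51% in siCARM1, 43.1% in siCHD4, 39.2% in siKDM1A, 29.4% in siHDAC2 and 19.6% in siGATAD2A, and the lower calls to 37.3% in siGATAD2A, 29.4% in siCHD4, 11.8% in siHDAC2, 9.80% in siCARM1 and 5.88% in siKDM1A. The higher share was over 2 times the background in 3 of 5 comparisons and the lower share over 2 times the background only in siGATAD2A. The 7 genes that passed the filter only through a knockdown had to differ somewhere. Without them, 44 genes gave 22 higher and 5 lower calls in siCARM1, 17 and 14 in siCHD4, 13 and 6 in siHDAC2, 6 and 19 in siGATAD2A and 13 and 3 in siKDM1A.

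Over the 51 genes, siCARM1 had a median log2 fold change of 0.30, siKDM1A of 0.21, siCHD4 of 0.16, siHDAC2 of 0.14 and siGATAD2A of -0.18, against medians of -0.00 to 0.01 over all tested genes. Over the 44 genes expressed in siCTL, the medians were 0.24, 0.15, 0.12, 0.11 and -0.22 in the same order. Only COL4A5, COL6A1 and ITGAE were called in no knockdown, so 48 of 51 were called in at least 1 (background 73%). COL6A1 in siGATAD2A, and COL4A5 in siCHD4, siHDAC2 and siGATAD2A, reached the adjusted p but not the minimum fold. COL4A1, COL6A3, LAMA4 and LAMC3 were higher in all 5 (background 2.28%) and 0 were lower in all 5 (background 1.7%), by DESeq2 and by unadjusted edgeR p under 0.05 as well. COL6A3 is 1 of the 7 genes that passed the filter only through a knockdown, here siCHD4 (0.663 FPKM). All 5 comparisons use the same 2 siCTL libraries, so the 5 calls of a gene are not independent. A further 13 were higher in 1 knockdown and lower in another (25.5%, background 9.47%).

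**Figure D2:**
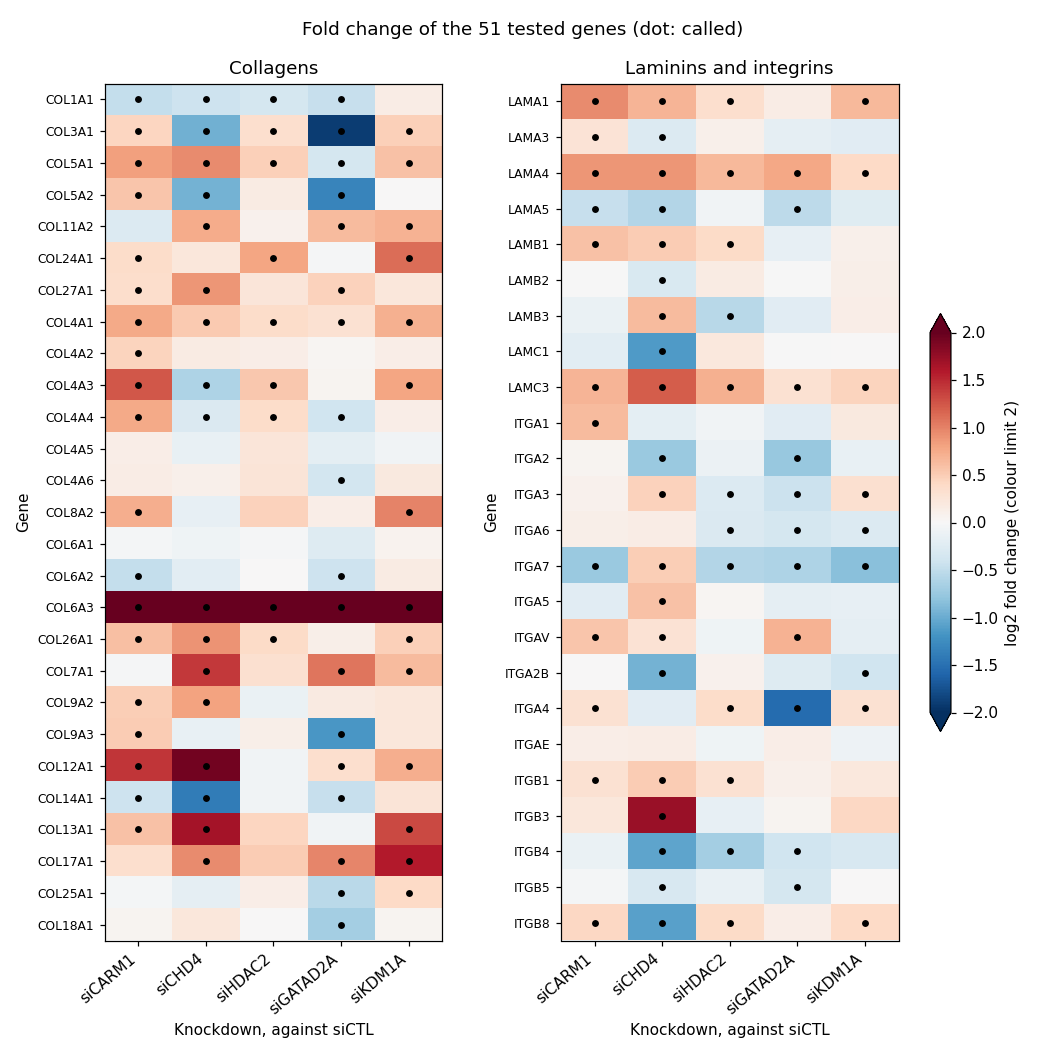
Log2 fold changes against siCTL of the 51 tested genes (rows) in 5 knockdowns (columns), with a dot where the gene was called and colours limited at 2. COL6A3 exceeds the limit in every column, the siGATAD2A column holds 19 lower calls, and the siKDM1A column 3.

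The fibrillar collagens divided by knockdown. COL5A1 had 24.8 and 25.0 FPKM in siCTL, 44.8 and 42.9 in siCARM1, 47.3 and 46.5 in siCHD4, 33.1 and 35.7 in siHDAC2, 38.4 and 35.8 in siKDM1A and 19.4 and 19.6 in siGATAD2A. It rose in 4 knockdowns and fell in siGATAD2A, with no overlap between libraries of any knockdown and siCTL. The log2 fold change was 0.95 ± 0.043 (SE) in siCHD4 and -0.36 ± 0.044 in siGATAD2A (edgeR adjusted p = 2.35e-18 and 4.74e-08).

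COL3A1, the chain of type III collagen, and COL5A2, which joins COL5A1 in type V trimers, lie tail to tail on chromosome 2 with 19151 bases between them. COL3A1 had 2.05 and 2.19 FPKM in siCTL, 0.602 and 0.538 in siGATAD2A, 1.09 and 1.03 in siCHD4, 2.89 and 2.81 in siCARM1, 2.56 and 2.76 in siHDAC2 and 3.13 and 2.78 in siKDM1A. COL5A2 had 3.97 and 3.65 FPKM in siCTL, 1.49 and 1.56 in siGATAD2A, 2.05 and 1.81 in siCHD4, 5.51 and 5.67 in siCARM1, 4.16 and 4.33 in siHDAC2 and 4.03 and 3.63 in siKDM1A. Both fell in siGATAD2A (log2 fold change -1.90 ± 0.13 (SE) and -1.32 ± 0.090) and in siCHD4 (-0.97 ± 0.11 and -0.94 ± 0.087), and both rose in siCARM1 (0.42 ± 0.099 and 0.56 ± 0.077). COL3A1 was also called higher in siKDM1A and, only with the first siCTL and the second siHDAC2 library in the fit, in siHDAC2. In siCHD4, then, COL5A1 and COL5A2, which assemble into the same trimer, were called in opposite directions.

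COL1A1, the main fibril chain of bone and skin, fell in 4 knockdowns, from 11.7 and 11.7 FPKM in siCTL to 8.23 to 9.35 FPKM in the 8 libraries of siCARM1, siCHD4, siHDAC2 and siGATAD2A. It stood at 13.6 and 12.2 FPKM in siKDM1A, where it was not called. COL24A1 rose in siKDM1A from 0.482 and 0.580 to 1.13 and 1.18 FPKM (log2 fold change 1.12 ± 0.14), in siHDAC2 and in siCARM1, the last not under DESeq2 and not without the first siCTL or the second siCARM1 library. COL27A1 rose in siCARM1, siCHD4 and siGATAD2A, by up to 0.89 ± 0.090 in siCHD4, and in siCARM1 not without its first library.

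Type IV collagen genes lie in 3 head-to-head pairs. COL4A1 rose in all 5 knockdowns, from 6.21 and 5.97 FPKM in siCTL to 10.4 and 10.1 in siCARM1, 10.2 and 9.70 in siKDM1A, 8.34 and 8.63 in siCHD4, 7.67 and 7.86 in siHDAC2 and 7.49 and 7.49 in siGATAD2A. Its neighbour COL4A2, with which it forms the trimer of most basement membranes, was called higher in siCARM1 at 14.1 and 13.2 FPKM against 10.1 and 10.1 in siCTL, and stood at 10.2 to 11.4 FPKM in the other 8 knockdown libraries. The log2 fold changes of COL4A1 were thus 0.75 ± 0.048 (SE) and 0.71 ± 0.048 in siCARM1 and siKDM1A and those of COL4A2 0.44 ± 0.044 and 0.13 ± 0.045.

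The sequence between the RefSeq start sites of this pair is shown because the 2 genes share it (GRCh38.p14, plus strand, 126 bases, COL4A1 reading to the left and COL4A2 to the right), with matches to the same 3 motifs in capitals.
COL4A1 and COL4A2 (chr13:110307158-110307283): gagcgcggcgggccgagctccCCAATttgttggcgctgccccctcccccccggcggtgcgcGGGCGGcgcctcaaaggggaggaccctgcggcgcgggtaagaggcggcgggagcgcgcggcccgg

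It held 1 CCAAT box and 1 GC box. In the 126 bases nearest the start site of the same 35116 promoters, 34.6% held a GC box, 21.1% a CCAAT box and 5.87% a TATA box.

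The kidney and lens pair COL4A3 and COL4A4 (418 bases between RefSeq start sites) was called higher in siCARM1 and siHDAC2 and lower in siCHD4 for both genes. COL4A4 had 1.32 and 1.04 FPKM in siCTL, 1.96 and 1.99 in siCARM1 and 0.858 and 1.0 in siCHD4, and its siCHD4 call was lost without the first siCTL or the first siCHD4 library and its siHDAC2 call without the second siCTL or the second siHDAC2 library. In siGATAD2A COL4A4 was called lower (0.893 and 0.887 FPKM, not without the first siCTL library), while COL4A3 stood at 0.253 and 0.289 FPKM against 0.253 and 0.265. The third pair, COL4A5 and COL4A6 on chromosome X, moved little: COL4A5 was not called in any knockdown, and COL4A6 only in siGATAD2A (2.0 and 2.38 FPKM against 2.62 and 3.02), a call lost without the second siCTL or the first siGATAD2A library.

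**Figure D3:**
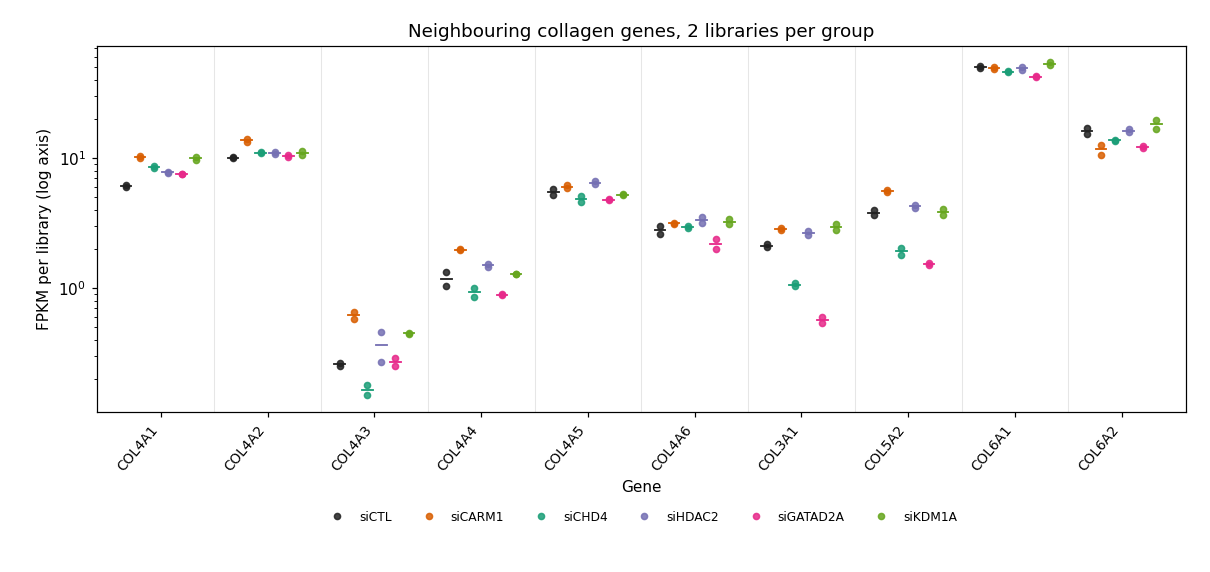
FPKM per library (log axis) of the collagen genes that neighbour each other, 2 points per group with a bar at their mean. COL3A1 and COL5A2 are both lowest in siGATAD2A and next lowest in siCHD4, and COL4A1 lies above siCTL in every knockdown.

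COL12A1, which coats type I collagen fibrils, responded in 4 knockdowns. It stood at 1.82 and 1.76 FPKM in siCTL, 4.80 and 4.78 in siCARM1, 6.64 and 6.61 in siCHD4, 2.83 and 3.05 in siKDM1A, 2.26 and 2.24 in siGATAD2A and 1.74 and 1.66 in siHDAC2. It rose by a log2 fold change of 1.93 ± 0.057 (SE) in siCHD4 and 1.42 ± 0.058 in siCARM1 (edgeR adjusted p = 5.22e-23 and 1.17e-18), and was not called in siHDAC2 (-0.07 ± 0.064). COL14A1, a related fibril coat, went the other way: 1.80 and 1.82 FPKM in siCTL, 0.741 and 0.604 in siCHD4, 1.41 and 1.30 in siCARM1 and 1.34 and 1.30 in siGATAD2A, lower calls in all 3.

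COL9A3, a cartilage collagen chain, fell in siGATAD2A from 3.38 and 3.30 to 1.56 and 1.42 FPKM and rose in siCARM1 to 4.74 and 4.71. Its partner COL9A2 rose in siCARM1 and siCHD4 (log2 fold change 0.49 ± 0.14 (SE) and 0.81 ± 0.14), the siCARM1 call not without the second siCTL library. COL18A1 fell in siGATAD2A only, from 28.7 and 29.6 to 17.8 and 18.5 FPKM (-0.69 ± 0.051). 18.5% of its exonic bases overlap SLC19A1 on the other strand, and the reverse-strand counts separate these genes.

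Of the type VI collagen chains, COL6A1 was not called in any knockdown. In siGATAD2A it stood at 41.8 and 42.6 FPKM against 49.6 and 51.2 in siCTL. That log2 fold change of -0.26 ± 0.043 (SE; edgeR adjusted p = 8.35e-06) did not reach the fold of 1.2. COL6A2 fell in siCARM1 and siGATAD2A, to 12.7 and 10.6 and to 12.3 and 11.9 FPKM from 15.4 and 16.9. COL26A1, grouped here with the beaded filament chains, rose in 4 knockdowns, by up to 0.90 ± 0.13 (SE) in siCHD4 from 2.10 and 3.02 FPKM. Its siHDAC2 and siKDM1A calls were lost without the first siCTL library, and the siHDAC2 call also under DESeq2 and without either siHDAC2 library. COL25A1, a transmembrane collagen of neurons, fell in siGATAD2A (2.21 and 2.19 FPKM against 3.30 and 3.11) and rose in siKDM1A (4.19 and 4.23). Summed over all 44 collagens, FPKM was 183 ± 3.63 (SD, n = 2) in siCTL, 214 ± 7.67 in siCARM1, 215 ± 11.2 in siKDM1A, 209 ± 0.851 in siCHD4, 196 ± 8.72 in siHDAC2 and 146 ± 0.182 in siGATAD2A.

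Of the laminins, LAMC1 had the clearest single response. It had 47.7 and 47.6 FPKM in siCTL and 21.4 and 21.0 in siCHD4, and between 41.0 and 55.2 in the other 8 knockdown libraries. It fell in siCHD4 by 1.13 ± 0.038 on the log2 scale (edgeR adjusted p = 1.31e-21) and was called in no other knockdown, since its changes of -0.21 in siCARM1 and 0.21 in siHDAC2 did not reach the fold of 1.2. The difference was also called between siCHD4 and each of the other 4 knockdowns, with siCHD4 lower (log2 difference of siCARM1 minus siCHD4 0.92, of siCHD4 minus siHDAC2 -1.34). LAMC1 encodes the gamma chain found in most laminins. LAMC3, another gamma chain, rose from 1.56 and 1.69 FPKM to 3.65 and 3.66 in siCHD4. LAMC3 was called higher in all 5 knockdowns, in siGATAD2A not without the first siCTL or the second siGATAD2A library.

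The alpha chains did not move together. LAMA5, the alpha chain of adult basement membranes, fell to 46.2 and 42.9 FPKM in siCARM1, 39.9 and 39.2 in siCHD4 and 42.1 and 42.6 in siGATAD2A, from 59.7 and 62.5 in siCTL. LAMA1, the chain of the early embryo, rose from 2.38 and 2.38 FPKM to 4.38 and 4.78 in siCARM1, 3.64 and 3.74 in siCHD4, 3.66 and 3.75 in siKDM1A and 3.08 and 2.90 in siHDAC2. LAMA4, the chain of vessels and muscle, rose in all 5, from 0.856 and 0.803 FPKM to between 1.07 and 1.55. LAMA5 thus gave 91.4% ± 0.20 (SD, n = 2) of the summed alpha chain FPKM in siCTL and 82.8% ± 1.29 in siCARM1. LAMA3, with 2.46 and 2.57 FPKM in siCTL, was called higher in siCARM1 (2.96 and 3.10) and lower in siCHD4 (2.02 and 2.03), both near the minimum fold. The LAMA3 calls were lost without the first siCTL or the second siCARM1 library, and without the second siCTL library, respectively, and the siCARM1 call on counts without regard to strand.

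The beta chains behaved separately. LAMB1 rose from 4.04 and 4.16 FPKM to 6.04 and 6.30 in siCARM1, 5.68 and 5.67 in siCHD4 and 5.33 and 5.29 in siHDAC2. LAMB3, known from skin laminin, rose in siCHD4 from 7.74 and 8.35 to 12.3 and 12.1 FPKM and fell in siHDAC2 to 5.30 and 5.60. LAMB2, the most abundant beta chain at 21.7 and 24.5 FPKM, was called only in siCHD4, at 18.2 and 18.1 FPKM, and not without the second siCTL library. Summed FPKM of the 12 laminins lay under the siCTL values (148 and 155) in siCHD4 (109 and 107), siCARM1 (136 and 132) and siGATAD2A (132 and 132) and above them in siHDAC2 (157 and 161), while in siKDM1A (148 and 147) 1 library lay within and 1 under them.

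**Figure D4:**
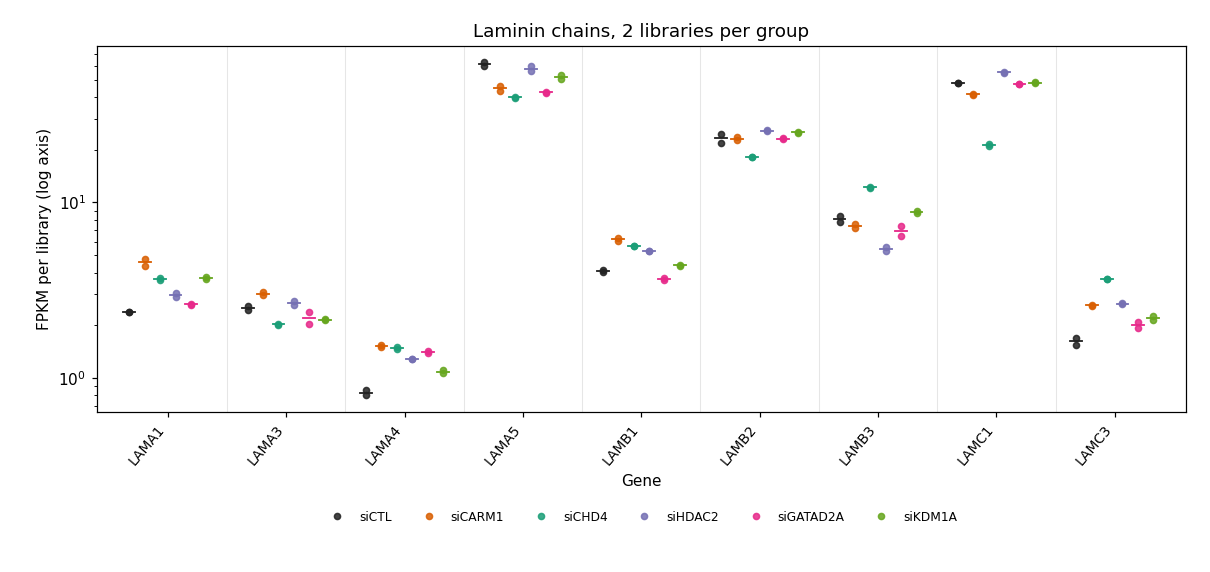
FPKM per library (log axis) of the 9 expressed laminin chains, 2 points per group with a bar at their mean. LAMC1 is lower in siCHD4 (21.4 and 21.0) than in every other group, and LAMA4 and LAMC3 lie above siCTL in every knockdown.

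The laminin-binding integrin chains ITGA3, ITGA6 and ITGA7 pair with ITGB1. ITGA7 had 6.01 and 6.43 FPKM in siCTL, 3.82 and 3.64 in siCARM1, 4.04 and 4.21 in siHDAC2, 4.05 and 4.07 in siGATAD2A, 3.46 and 3.47 in siKDM1A and 8.81 and 8.22 in siCHD4. It fell in 4 knockdowns and rose in siCHD4, and no library overlapped with siCTL. Between siCHD4 and siKDM1A the log2 difference was 1.33 ± 0.062 (SE), a pair chosen for its opposite calls and so given without a test. ITGA3 rose in siCHD4 and siKDM1A, to 6.45 and 6.22 and to 6.05 and 5.71 FPKM from 4.47 and 4.92, and fell in siHDAC2 (3.63 and 4.04) and siGATAD2A (3.41 and 3.55). Its siKDM1A call was lost without the first siCTL library and its siHDAC2 call without the second siCTL or the first siHDAC2 library. ITGA6 was called lower in siHDAC2, siGATAD2A and siKDM1A by 0.28 to 0.35 on the log2 scale, the siHDAC2 and siKDM1A calls not on counts without regard to strand and not without the first siCTL, the second siHDAC2 or the first siKDM1A library.

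Of the collagen receptor chains, ITGA1 rose in siCARM1 (2.47 and 2.72 FPKM against 1.76 and 1.58) and ITGA2, its neighbour on chromosome 5, fell in siCHD4 and siGATAD2A (1.92 and 2.08, and 2.04 and 2.03, against 3.25 and 3.58). 5.77% of the ITGA1 exonic bases are shared with genes on the same strand, among them PELO, so its count is uncertain to that extent. Of the chains that bind the Arg-Gly-Asp sequence, ITGA5 rose in siCHD4 (18.9 and 18.7 FPKM against 12.4 and 13.4) and ITGAV in siCARM1, siCHD4 and siGATAD2A, by up to 0.69 ± 0.052 (SE) in siGATAD2A (7.51 and 7.75 FPKM against 4.73 and 4.74). The siCHD4 call of ITGAV was lost without the second siCHD4 library. ITGA2B, the platelet chain, fell in siCHD4 (1.85 and 1.81 FPKM against 3.51 and 3.69) and in siKDM1A (2.76 and 2.69).

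ITGA4, which binds fibronectin and VCAM1, had 2.48 and 2.60 FPKM in siCTL and 0.774 and 0.984 in siGATAD2A, and between 2.04 and 3.33 in the other 8 knockdown libraries. It fell in siGATAD2A by 1.54 ± 0.095 on the log2 scale (edgeR adjusted p = 2.08e-14) and was called higher in siCARM1, siHDAC2 and siKDM1A by 0.31 to 0.37, in siCARM1 not without its second library. ITGAE, expressed at 3.21 and 3.67 FPKM in siCTL, was called in none.

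ITGB1 rose in siCHD4 (34.2 and 34.3 FPKM against 26.1 and 23.5) and was called higher in siCARM1 and siHDAC2, these calls not without the second siCTL library, nor the second siCARM1 or the first siHDAC2 library. ITGB3, the beta chain of the vitronectin receptor, stood at 0.523 and 0.495 FPKM in siCTL, 1.62 and 1.65 in siCHD4 and 0.405 to 0.760 in the other knockdowns. Its log2 fold change in siCHD4 was 1.72 ± 0.16 (SE; edgeR adjusted p = 9.38e-11), but 33.2% of its exonic bases lie in another gene on the same strand, so its reads may be split between them. ITGB8, a receptor of latent TGF-beta, fell in siCHD4 from 1.99 and 2.05 to 0.827 and 1.02 FPKM and rose in siCARM1, siHDAC2 and siKDM1A to between 2.54 and 2.82. ITGB4, the hemidesmosome chain, fell in siCHD4 (0.930 and 0.805 FPKM against 1.56 and 2.10), and its calls in siHDAC2 and siGATAD2A were lost without the second siCTL library, the latter also under DESeq2 and without either siGATAD2A library. ITGB5 fell in siCHD4 and siGATAD2A by 0.32 and 0.36 on the log2 scale.

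**Figure D5:**
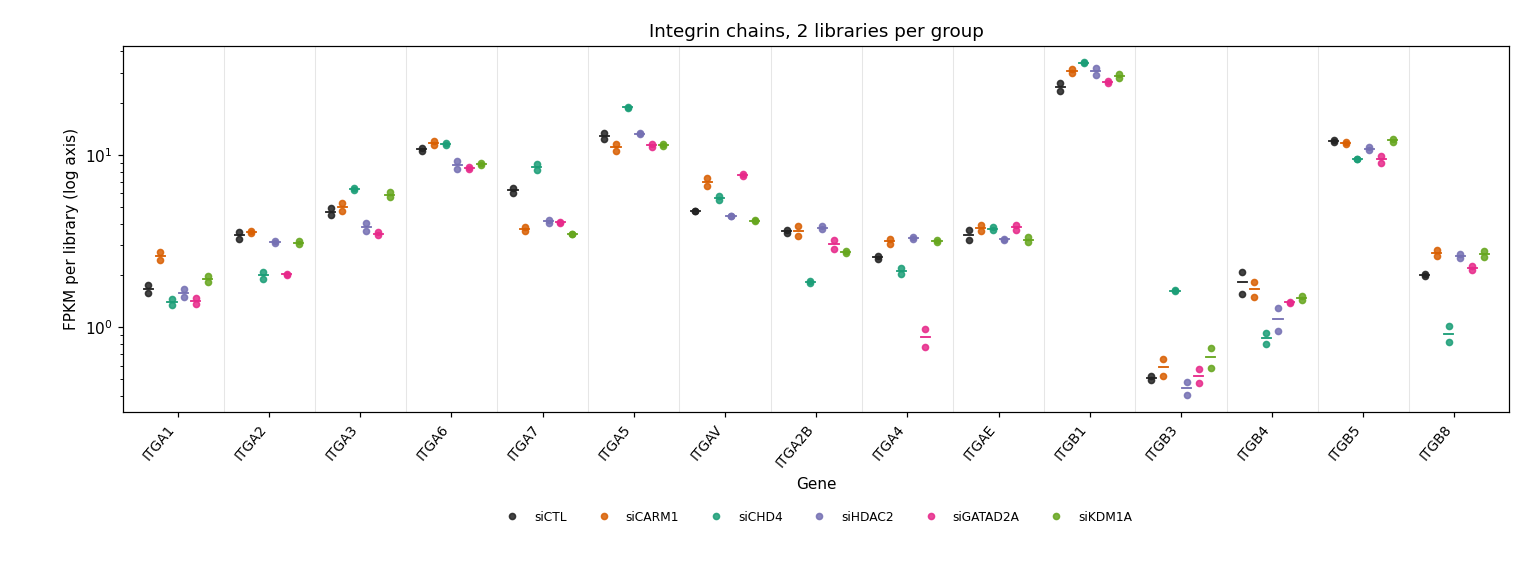
FPKM per library (log axis) of the 15 expressed integrin chains, 2 points per group with a bar at their mean. ITGA4 stands apart in siGATAD2A (0.774 and 0.984), and ITGB3 and ITGB8 in siCHD4, upward and downward.

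Direct comparison of knockdowns, which does not use the siCTL libraries, separated many of the 51 genes. The numbers called were 36 for siCARM1 against siCHD4 (background 47.7%), 23 against siHDAC2 (19.3%), 30 against siGATAD2A (33.8%) and 25 against siKDM1A (21%). For siCHD4 they were 36 against siHDAC2 (48.8%), 33 against siGATAD2A (44.8%) and 39 against siKDM1A (47.7%). For siHDAC2 they were 26 against siGATAD2A (29.5%) and 19 against siKDM1A (14.3%), and for siGATAD2A against siKDM1A 33 (32.1%). As shares of 51, these counts ran from 37.3% to 76.5% and were above the background in all 10 pairs. They include the 7 genes that passed the filter only through a knockdown and so had to differ somewhere.

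In siGATAD2A against siKDM1A, 29 genes were lower in siGATAD2A and 4 higher. COL3A1 (-2.37 ± 0.12 on the log2 scale), ITGA4 (-1.85 ± 0.092), COL9A3 (-1.38 ± 0.12), COL13A1 (-1.38 ± 0.22) and COL5A2 (-1.33 ± 0.089) were among the lower. The 4 higher were COL6A3, COL7A1, LAMA4 and ITGAV. COL6A3, COL7A1 and COL13A1 are among the genes that passed the filter only through a knockdown. In siCARM1 against siGATAD2A, 27 of 30 called genes were higher in siCARM1. In siCHD4 against siHDAC2, 18 were higher and 18 lower. The split by direction over all tested genes is not given for these pairs, so these splits have no background. In siGATAD2A against siKDM1A the median log2 difference was -0.36 over the 51 genes and -0.0016 over all tested genes. In siCARM1 against siGATAD2A it was 0.33 and 0.00097.

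Genes that act with these proteins were read from 6 lists, whose counts stand against the shares of all tested genes given above (in siCHD4, 24% higher and 24.9% lower). The higher share of a list was over 2 times that of all tested genes in 5 of 5 comparisons for other integrin ligands, 4 for collagen processing, 4 for matrix proteases and inhibitors, 3 for basement membrane partners, 3 for other matrix receptors and 0 for integrin adhesion. The lower share was so in 2 for basement membrane partners and in 1 each for other integrin ligands, other matrix receptors and matrix proteases and inhibitors. For collagen processing and integrin adhesion it was so in 0. Of 33 tested genes of collagen processing, 16 were higher and 7 lower in siCHD4, 13 and 3 in siCARM1, 11 and 2 in siKDM1A, 8 and 3 in siHDAC2 and 5 and 11 in siGATAD2A. ADAMTS2, the protease that removes the amino end of procollagen, rose in 4 knockdowns, with a log2 fold change of 1.32 in siCHD4 and -0.06 in siGATAD2A. LOXL3, a cross-linking enzyme, rose in 4 (1.08 in siCHD4, 1.09 in siKDM1A), and ADAMTS14 rose in siCHD4 (2.06) and siHDAC2 (0.90). The siCARM1 call of LOXL3 and the siHDAC2 call of ADAMTS14 were lost under DESeq2 and without any 1 of the 4 libraries concerned.

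Of 16 basement membrane partners, 7 were lower and 1 higher in siGATAD2A, 5 and 5 in siCHD4, 3 and 5 in siCARM1, 5 and 6 in siKDM1A and 2 and 6 in siHDAC2. VWA1, a perlecan-binding protein, fell in all 5 (-0.64 to -1.56), SPARC, a collagen-binding glycoprotein at 41.7 FPKM in siCTL, fell in 4 (-1.24 in siCHD4 and -1.05 in siGATAD2A), and SMOC2 fell in 3 (-1.99 in siGATAD2A). The siKDM1A calls of SPARC and SMOC2 were lost without the second siCTL library, and that of SPARC without the first siKDM1A library.

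Of 16 other integrin ligands, 9 were higher and 0 lower in both siCARM1 and siCHD4 (by DESeq2 also 0 lower, and 1 and 3 lower at an unadjusted edgeR p under 0.05), 13 and 1 in siKDM1A, 7 and 4 in siGATAD2A and 4 and 5 in siHDAC2. FBN2, a microfibril protein, rose in all 5 (0.82 to 1.10), FBN1 rose in 4 (1.99 in siCARM1), and THBS2 rose in siCHD4 (2.08) and siKDM1A (0.38) and fell in siGATAD2A (-1.23). The siKDM1A call of THBS2 was lost under DESeq2 and without either siCTL or the first siKDM1A library.

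Of 37 integrin adhesion genes, 10 were higher and 7 lower in siCHD4, 11 and 3 in siCARM1, 5 and 3 in siKDM1A, 4 and 4 in siHDAC2 and 3 and 7 in siGATAD2A. Several of these shares were near the background, such as 27.0% higher in siCHD4 (24%), 10.8% higher in siHDAC2 (10.6%) and 18.9% lower in siGATAD2A (18.2%). Others were further from it, such as 29.7% higher in siCARM1 (14.9%) and 8.11% higher in siGATAD2A (15.7%). PARVA, which joins integrin-linked kinase to actin, fell in 4 (-1.44 in siCHD4), LPP rose in all 5 (0.27 to 0.88, in siCHD4 at the minimum fold and lost without the first siCHD4 library or any 1 of 4 libraries of other knockdowns), and FLNC rose in siCHD4 (1.84) and siCARM1 (0.56) and fell in siGATAD2A (-0.50). Of 15 other matrix receptors, 5 were higher and 1 lower in siCARM1, 4 and 5 in siCHD4, 4 and 1 in siHDAC2, 2 and 8 in siGATAD2A and 5 and 1 in siKDM1A. CD44, the hyaluronan receptor, rose in 4 (1.37 in siCHD4) and fell in siGATAD2A (-1.04), SDC4 rose in 4 (1.64 in siGATAD2A), and the collagen receptor kinase DDR2 rose in all 5 (0.32 to 0.89). Its siCHD4 and siKDM1A calls were lost without the second siCTL library, and the latter also under DESeq2 and without the first siKDM1A library.

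Of 21 matrix proteases and inhibitors, 13 were higher and 6 lower in siCHD4, 11 and 2 in siCARM1, 9 and 0 in siKDM1A (by DESeq2 also 0, and 3 lower at an unadjusted edgeR p under 0.05), 6 and 2 in siHDAC2 and 6 and 9 in siGATAD2A. ADAMTS5, an aggrecanase, rose in 4 knockdowns (2.05 in siCARM1) from a mean of 25.0 counts in siCTL. MMP1, the interstitial collagenase, rose in siCARM1 and siCHD4 from a mean of 5.5 counts, and MMP24 in siCARM1, siCHD4 and siGATAD2A from 18.0 counts. The siCARM1 and siGATAD2A calls of MMP24 were lost on counts without regard to strand, and the latter also under DESeq2 and without the first siCTL or the first siGATAD2A library. Across 5 of the 6 lists, more genes were lower than higher in siGATAD2A, against 18.2% lower and 15.7% higher among all tested genes. There the 27 collagens had 11 lower and 7 higher calls, the 10 integrin alpha chains 5 and 1, the 5 integrin beta chains 2 and 0, and the 9 laminins, in the other direction, 1 and 2.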

How the data were processed

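RNA-seq was performed on 12 libraries of cells labelled HEK293T. For each library the authors deposited raw counts per Ensembl gene in 3 columns, 1 of both strands together and 1 of each strand. The submitters' processing notes name STAR 2.7.10, CASAVA 1.4 and hg19. The annotation is not given in the sources used here, and the methods of the paper name TopHat and HOMER. The library kit keeps the strand, and counts of the reverse strand (column 4) were analysed. Their totals lay between 19308315 and 28648657. Identifiers were matched to GENCODE release 44 lifted to GRCh37 (58662 of 60660, 96.7%). Rows of the files that name no gene stayed out of library sizes and tests.

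Counts were normalized by TMM in edgeR 4.0.16 (R 4.3.3) and fitted with 1 mean per group for the 6 groups, tested by quasi-likelihood, with Benjamini-Hochberg adjustment within each comparison. Calls required a fold of at least 1.2 and an adjusted p no larger than 0.05. The fit covered 12830 coding genes over 0.5 FPKM in the mean of at least 1 group, and for near-silent genes the 16135 coding genes with at least 10 counts. Exact intervals are 95% Clopper-Pearson intervals of the ratio of summed counts. The libraries of each group differed by more than sampling noise (chi-square of 1.73 to 4.57 per degree of freedom). An exact permutation test of 2 against 2 libraries cannot go below p = 0.333 and was not used. Scripts were tested on simulated data.

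The rule for the members reads gene symbols alone, but this gene group, the lists, the tests and the alternatives were chosen with earlier results of these data known. Named are up to 10 called members per comparison with the largest fold change and non-overlapping libraries, members called the same way in all 5, near-silent members called higher, the 3 most abundant per family, neighbouring pairs, up to 3 genes per list and the targets. Other members are named to account for the 82, except for an item that is not reported here. DESeq2 1.42.0 was run as an alternative.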

Additional observations from a re-analysis of the deposited data

Results flagged for a closer look

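For 13 genes a higher call against siCTL in 1 knockdown stood beside a lower call in another. The difference between those 2 knockdowns does not use the siCTL libraries, but the pair was chosen for its opposite calls and its size, so the differences, on the log2 scale with the SE of edgeR, are a description, and a test of them adds nothing to the 2 calls.

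Of the collagens, COL3A1 was higher in siKDM1A than in siGATAD2A by 2.37 ± 0.12 (SE), COL25A1 by 0.94 ± 0.074 in the same pair. COL5A2 was higher in siCARM1 than in siGATAD2A by 1.87 ± 0.085, COL9A3 by 1.66 ± 0.11 and COL4A4 by 1.15 ± 0.10. COL5A1 was higher in siCHD4 than in siGATAD2A by 1.31 ± 0.043, and COL4A3 was higher in siCARM1 than in siCHD4 by 1.87 ± 0.20.

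Of the laminins, LAMB3 was higher in siCHD4 than in siHDAC2 by 1.19 ± 0.070, and LAMA3 was higher in siCARM1 than in siCHD4 by 0.54 ± 0.071. Of the integrins, ITGA4 was higher in siHDAC2 than in siGATAD2A by 1.91 ± 0.091, ITGB8 higher in siCARM1 than in siCHD4 by 1.51 ± 0.084, ITGA7 higher in siCHD4 than in siKDM1A by 1.33 ± 0.062 and ITGA3 higher in siCHD4 than in siGATAD2A by 0.90 ± 0.068. For 8 of the 13 genes the lower knockdown was siGATAD2A. How often it was so among all tested genes with opposite calls is not given here, so this count has no background. Among all tested genes, lower calls took 18.2% in siGATAD2A, 24.9% in siCHD4, 14.5% in siCARM1, 11.5% in siKDM1A and 9% in siHDAC2.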

How the results depend on the processing

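Of 36 counts, 14 of 673 alternative values moved by more than 1.5 times. With near-silent set at 0.1 FPKM or less in siCTL, fewer such genes were higher in siCARM1 (4 in place of 7), siCHD4 (8 in place of 15) and siKDM1A (4 in place of 11). Fewer genes qualify at that level. Their number and the share of all coding genes at that level are not given, so these counts cannot be read as shares. In siHDAC2, DESeq2 called 3 near-silent genes higher in place of 5, and leaving out single libraries gave 3 to 5, against 6 to 11 in siGATAD2A. With all coding genes of at least 1 count in the fit, which adds near-silent genes, 17 genes were higher in siGATAD2A in place of 10 and 5 lower in siKDM1A in place of 3. With no fold minimum, 7 were lower in siKDM1A, and of the 6 lists 21 genes were lower in siCARM1 in place of 12, 28 in siHDAC2 in place of 17 and 23 in siKDM1A in place of 12. A correction for GC content, added after seeing the data, left 22, 22, 17, 10 and 21 of the 51 genes higher in siCARM1, siCHD4, siHDAC2, siGATAD2A and siKDM1A. At a threshold of 1 FPKM 45 genes counted as expressed, and at 0.1 FPKM 70.

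The 243 named calls had 4938 alternative values, of which 0 reversed direction and 160 lost the call. 190 calls held in every alternative run, and 49 were lost with a library left out.

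Same-numbered libraries did not deviate together (correlations of -0.14 to 0.14), so the replicate number does not pair them. With the replicate number as a block, 25 genes were higher in siCARM1 in place of 26, 14 near-silent genes were higher in siCHD4 in place of 15, and the calls of COL13A1 in siCARM1 and COL15A1 in siCHD4 were lost, with no other named call lost.

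With 2 libraries per group, 1 library decides many calls near the threshold. Where a library was left out, the lone sample was assumed to vary like the other groups. Near-silent genes rest on few counts, so a missing call does not show that their level stayed the same.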
